A study of Mus musculus with 15 samples.

Results

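Solute carriers are membrane proteins that move nutrients, ions, metals, nucleotides and organic acids across the plasma membrane and the membranes of organelles. Their genes carry the symbol Slc followed by a family number and a member number. The genes described here are the protein-coding Slc genes whose mean level reached 10 TPM, a unit scaled for gene length and library depth, in at least 1 of 5 treatment groups. They number 128 of the 280 Slc genes considered and of the 18078 genes measured. They were chosen by their mean TPM in these same libraries, so the levels near the threshold are a description only. The members just above it were Slc26a11, Slc16a11 and Slc41a2, with highest group means of 10.05, 10.39 and 10.48 TPM. Slc7a7, Slc35g1 and Slc30a6 lay just below it at 9.68, 9.33 and 8.80 TPM. The threshold was reached in all 5 groups by 115 members and in some groups by 13, and TPM of the latter are given separately as a description. Their levels decide their membership, so counts of called members are given also over the 115.

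The cells were primary lung fibroblasts of wild-type BALB/cJ mice, held for 20 h without cytokine or with IL-33, IL-33 and IL-17A, IL-33 and IL-13, or all 3 cytokines, called the triple combination below. Each of the 5 groups has 3 RNA sequencing libraries of total RNA. IL-33 is released by damaged barrier cells, IL-13 acts through the transcription factor STAT6, and IL-17A is made by lymphocytes of mucosal defence. All groups but the untreated one contain IL-33, so the effects of IL-13 and IL-17A were measured only on top of it. The labels do not say whether the libraries of a group came from separate mice or cultures, so each p-value reflects library-to-library spread alone, and that spread may be technical.

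Fibroblasts and the immune cells beside them use these carriers to feed glycolysis, collagen synthesis and the mitochondria. Monocarboxylate carriers of family 16 exchange lactate and pyruvate, family 2 brings in glucose, and families 1, 7, 38 and 43 bring in amino acids. Families 11, 30 and 39 move iron, zinc and manganese, and family 25 links the mitochondrial matrix with the cytosol.

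Sequencing depth, estimated from the step that 1 read makes in the deposited values, was about 10500000 to 15100000 reads per library. The members had a median of 772 reads per library and none fell below 15.96 reads in any library. All 10 fibroblast markers were measured, with a median of 529 TPM and Col1a1 at 4658 TPM. All 14 macrophage markers were measured too, with a median of 302 TPM and Lyz2 at 9363 TPM, so the libraries also hold much macrophage RNA. In bulk RNA, fewer cells of a type and less RNA per cell cannot be told apart. The summed macrophage markers ranged over 18421 to 18725 TPM in untreated libraries, 17878 to 18138 with IL-33, 17759 to 18892 with IL-33 plus IL-17A, 16962 to 17190 with IL-33 plus IL-13, and 16602 to 17290 in the triple combination. The summed fibroblast markers ranged over 12158 to 13601, 10890 to 11714, 9907 to 11320, 9478 to 9762 and 8107 to 8727 TPM in the same order. Epithelial and endothelial markers had medians of 0.893 and 0.567 TPM. Of the other marker lists, the lymphocyte gene Il7r stood at 8.92 TPM, the neutrophil gene S100a8 at a mean of 80.4 TPM, the basophil and mast cell gene Mcpt8 at 122 TPM, the smooth muscle gene Cnn1 at 356 TPM and the mesothelial gene Upk3b at 7.19 TPM. All 4 tested smooth muscle markers fell with IL-33 and with each addition to it, except that 3 fell with IL-13 on IL-33 and IL-17A. Of the fibroblast markers 4 fell and 2 rose with IL-33 alone. IL-17A lowered 3 and raised 0 on IL-33, and lowered 2 and raised 1 on IL-33 and IL-13. IL-13 lowered 7 and raised 1 on IL-33, and lowered 6 and raised 1 on IL-33 and IL-17A. Of all tested genes, 14.2% were called with IL-33. For IL-17A the shares were 9.76% on IL-33 and 7.45% on IL-33 and IL-13. For IL-13 they were 32.4% on IL-33 and 15.8% on IL-33 and IL-17A. S100a8 had group means of 17.2 TPM untreated, 66.7 with IL-33, 108 with IL-33 plus IL-17A, 74.4 with IL-33 plus IL-13 and 136 in the triple combination. Mcpt8 had 86.3, 114, 123, 139 and 148 TPM in the same order. The part of these cell types in the carrier results was not tested. A set of 6 libraries gave 3.50 to 3.87% of their TPM to mitochondrially encoded genes, against 4.77 to 6.13% in the other 9. In it are every library of the IL-33 plus IL-13 group, libraries 2 and 3 of the IL-33 plus IL-17A group and the first triple library. A model term for the set, called the set term below, was itself called for 7 members that were higher and 17 that were lower in it, and for 16.3% of all genes. With the set term, IL-13 on IL-33 lowered 5 fibroblast markers and raised 1, where 10.2% of all genes were called.

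Together the 128 members made up 1.10 to 1.16% of all TPM. Their sum was 11023 ± 177 TPM (SD, n = 3) in untreated libraries, 11225 ± 135 with IL-33, 11613 ± 269 with IL-33 plus IL-17A, 11464 ± 37.1 with IL-33 plus IL-13 and 11316 ± 65.1 in the triple combination. The summed level thus moved by little while single members moved in both directions. On the deposited scale the most abundant member was Slc25a5, the adenine nucleotide carrier of the inner mitochondrial membrane, with a mean of 997 TPM over the 15 libraries. Slc39a7, a zinc carrier of the endoplasmic reticulum and Golgi, followed at 844 TPM, and Slc25a4, another adenine nucleotide carrier, at 743 TPM. The deposited TPM divide by the span of a gene, introns included, which sets compact genes high. When the estimated reads were divided by exon length instead, the order became Slc25a5 at 636 TPM, Slc2a1, the glucose transporter GLUT1, at 537 TPM, and Slc25a4 at 471 TPM. On that scale Slc39a1 and Slc48a1 lay close together at 382 and 377 TPM. Slc25a5 and some other family 25 genes have processed copies in the genome, and how reads shared with copies were counted is not given in the sources used here.

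**Figure D1:**
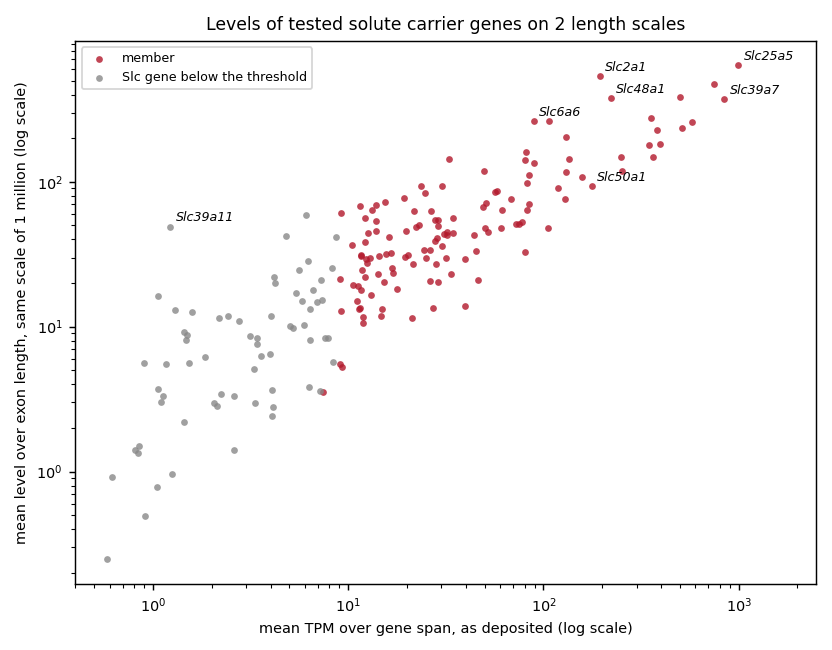
Mean level of each tested Slc gene over the 15 libraries, on the deposited TPM scale (x axis, log) and on a TPM scale over exon length (y axis, log). Points are genes: red for the 128 members, grey for Slc genes below the threshold; Slc39a11, with a long gene span, lies at 1.23 TPM but at 49.2 on the exon scale, and Slc2a1 moves up from 194 to 537.

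The span also bears on which genes reach the threshold. The members had a median span of 19.7 kb and the other Slc genes 41.6 kb, although both had median exon lengths near 4.65 and 4.64 kb. On the exon scale 125 of the 128 members and 33 further Slc genes reached 10 TPM. Among the latter was Slc7a7, a cationic amino acid exchanger, at 41.9 TPM.

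The design gives 5 pairwise comparisons and the interaction of IL-13 with IL-17A. Each gene was tested with limma on log2(TPM + 1) across 13887 genes, and a gene is called where the adjusted p is under 0.05. Log2 changes below are on that scale, which understates changes of low genes. Of the 128 members, 53 were called in no comparison, 33 in 1, 21 in 2, 13 in 3, 3 in 4 and 5 in all 5. The last were Slc16a1, Slc39a14, Slc20a1 and Slc25a25, which rose in each, and Slc44a2, which fell in each. The 5 comparisons share groups, so repeated calls are not independent.

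With IL-33 alone, Slc16a1, a lactate carrier, Slc39a14 and Slc11a2, metal carriers, and Slc15a3, a lysosomal peptide carrier, had the largest rises among members at the threshold in every group, and Slc7a5 and Slc1a4, amino acid carriers, and Slc37a2, a sugar phosphate carrier, the largest falls. Of the 128 members, 23 were higher and 10 lower. Of all tested genes, 14.2% were called, 5.92% higher and 8.28% lower. Among the 115 members at the threshold in every group, 21 were higher and 7 lower, and of all genes with a mean of 10 TPM or more, 17.1% were called. The set term gave 26 members higher and 13 lower, where 7.3% and 12% of all genes were called in these directions and 19.3% in either. The median log2 change was -0.04 over the members and -0.05 over all tested genes.

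Adding IL-17A to IL-33 raised Slc16a1, Slc6a17, Slc11a2 and Slc20a1 and lowered Slc7a5, Slc1a4 and Slc44a2. It raised 12 members and lowered 6 (12 and 5 of the 115), where 3.54% and 6.22% of all genes were called in these directions and 9.76% in either. Of genes with a mean of 10 TPM or more, 12.6% were called, and the 18 of 128 members (14.1%) lie near that share. With the set term 9 members were higher and 4 lower, where 2.66% and 3.36% of all genes were called in these directions and 6.01% in either. Adding IL-17A to IL-33 and IL-13 raised 15 members (13 of the 115), among them Slc16a1, Slc20a1, Slc11a2 and Slc25a25, and lowered 3, which were Slc7a5, Slc25a4 and Slc44a2. Here 3.4% of all genes were called higher, 4.05% lower and 7.45% in either direction, and 10.4% of genes with a mean of 10 TPM or more. The set term gave 7 members higher and 3 lower there, against 1.72% and 2.35% of all genes and 4.08% in either direction.

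Adding IL-13 to IL-33 gave the most calls. It raised 17 members, led by Slc1a5, Slc16a1 and Slc25a5 among those at the threshold in every group, and lowered 34, led by Slc38a2, Slc29a3, Slc25a36 and Slc11a1. Of all tested genes 32.4% were called, 10% higher and 22.4% lower, and of genes with a mean of 10 TPM or more 39.2% were called, and the 51 of 128 members lie near that share. Over the 115, 15 were higher and 32 lower. The split depended on scaling: with median-ratio scaling 28 members were higher and 25 lower, and with limma-voom on the estimated reads 32 and 24. All libraries with IL-33 plus IL-13 and none with IL-33 alone are in the set of low mitochondrial share, so in this pair alone the cytokine and the set cannot be told apart. With the set term, estimated from the other groups, 13 members were higher and 13 lower, against 4.75% and 5.48% of all genes and 10.2% in either direction. Adding IL-13 to IL-33 and IL-17A raised 14 members and lowered 17 (13 and 17 of the 115), against 6.7% and 9.14% of all genes and 15.8% in either direction. In that comparison 20.3% of genes with a mean of 10 TPM or more were called. There the set term gave 11 higher and 20 lower, against 6.79% and 10.8% of all genes and 17.6% in either direction.

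**Figure D2:**
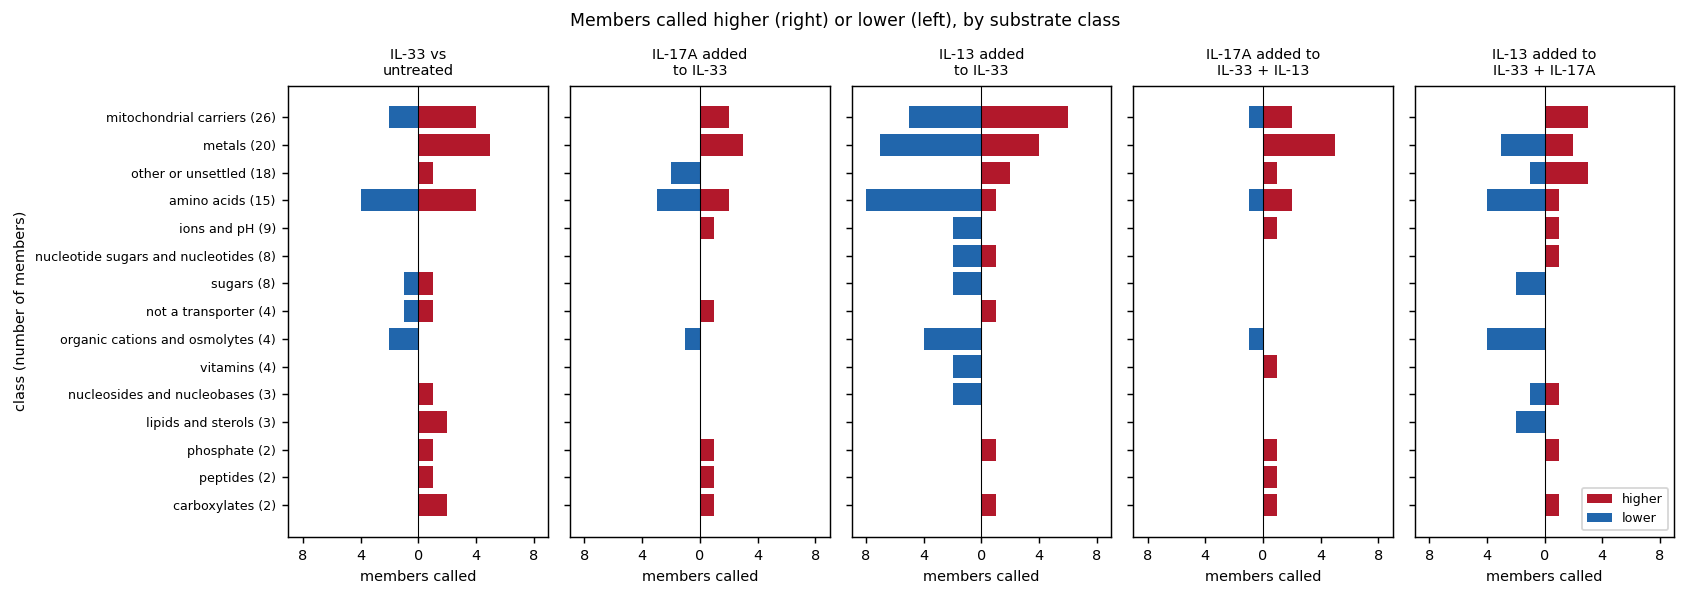
Members called higher (red, to the right) or lower (blue, to the left) in each of the 5 comparisons, by substrate class; the x axis counts members and the number in brackets is the class size. Amino acid carriers have 8 of 15 members lower when IL-13 was added to IL-33, or 5 with the set term. The phosphate, carboxylate and peptide classes, of 2 members each, have higher calls only. The class of 4 organic cation and osmolyte carriers has lower calls only.

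The largest change of any member was that of Slc16a1. It encodes MCT1, a proton-linked carrier of lactate, pyruvate and ketone bodies, and lies at chr3:104638668-104658462 on the plus strand of mm10. Slc16a1 levels were 20.7, 19.8 and 21.2 TPM in the untreated libraries, 41.4, 42.3 and 44.8 with IL-33 and 72.2, 79.3 and 79.8 with IL-33 plus IL-17A. They were 59.9, 58.6 and 57.4 TPM with IL-33 plus IL-13 and 87.0, 90.8 and 91.9 in the triple combination. No 2 groups overlap, and the order runs upward from untreated to IL-33 alone, then to added IL-13, added IL-17A and the triple combination. IL-33 raised Slc16a1 2.08-fold (log2 change 1.02, SE 0.047, adjusted p = 1.2e-08). IL-17A raised it by a further 0.83 on top of IL-33 (adjusted p = 2.5e-07) and by 0.61 on top of IL-33 and IL-13 (adjusted p = 7.5e-06), on the log2 scale. IL-13 raised it by 0.44 on top of IL-33 (adjusted p = 3.3e-05) and by 0.22 on top of IL-33 and IL-17A (adjusted p = 0.0071). All 5 calls held with the set term.

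Slc16a3 encodes MCT4, the carrier by which glycolytic cells export lactate. Its levels were 276, 264 and 217 TPM untreated, 383, 362 and 304 with IL-33, 340.0, 468 and 472 with IL-33 plus IL-17A, 411, 414 and 400.0 with IL-33 plus IL-13, and 390.1, 326 and 302 in the triple combination. The untreated libraries lie below all others, while the 4 treated groups overlap. The rise with IL-33 was 1.39-fold (log2 change 0.47, SE 0.14, adjusted p = 0.043), and none of the other comparisons was called. The high values with IL-33 plus IL-17A are those of the 2 libraries in the set of low mitochondrial share, and the set term moved the IL-17A difference from 0.28 to 0.02.

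The partners of these carriers come from a list of 26 transport genes that are no solute carriers by symbol, of which 8 were higher and 6 lower with IL-33. Emb, the embigin chaperone of monocarboxylate carriers, rose by 0.50 with IL-33, while its relative Bsg changed by 0.08 and was not called. Ldha, the lactate dehydrogenase subunit, rose by 0.28 with IL-33 and by 0.25 when IL-17A was added. Hk2, the hexokinase that traps glucose in the cell, rose by 0.37 with IL-33 and by 0.20 with IL-17A on top, and the latter call was lost with the set term (adjusted p = 0.072). In the other comparisons the list had 4 higher and 3 lower with IL-17A on IL-33, 5 and 8 with IL-13 on IL-33 (3 and 3 with the set term), 4 and 2 with IL-17A on IL-33 and IL-13, and 3 and 5 with IL-13 on IL-33 and IL-17A. Of all tested genes, 14.2% were called with IL-33, and 9.76%, 32.4%, 7.45% and 15.8% in the other comparisons in this order.

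Among the sugar carriers, Slc2a1 stood at 171, 166 and 181 TPM untreated, 205, 199.6 and 223 with IL-33, and 223, 215 and 211 with IL-33 plus IL-17A. It stood at 184, 182 and 173 TPM with IL-33 plus IL-13 and at 176, 195 and 199 in the triple combination. The groups without IL-13 that received IL-33 lie above all untreated libraries, and the groups with IL-13 overlap them. Slc2a1 rose 1.21-fold with IL-33 (adjusted p = 0.0041) and fell by 0.19 when IL-13 was added to IL-33 and IL-17A (adjusted p = 0.036). Its fall by 0.22 when IL-13 was added to IL-33 (adjusted p = 0.010) was lost with the set term (adjusted p = 0.39). Slc37a2, which exchanges glucose 6-phosphate for phosphate at the endoplasmic reticulum, fell from 46.9 ± 2.35 TPM (SD, n = 3) to 31.6 ± 2.29 with IL-33. This is a log2 change of -0.56 (SE 0.056, adjusted p = 2.0e-05), and no library of the groups overlaps. Slc37a2 fell by a further 0.26 when IL-13 was added to IL-33 and IL-17A, and its fall by 0.27 with IL-13 on IL-33 was lost with the set term (adjusted p = 0.072). The other 6 sugar carriers were called in no comparison, and Slc50a1, the most abundant of the class on the deposited scale after Slc2a1, lay between 155 and 199 TPM throughout.

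**Figure D3:**
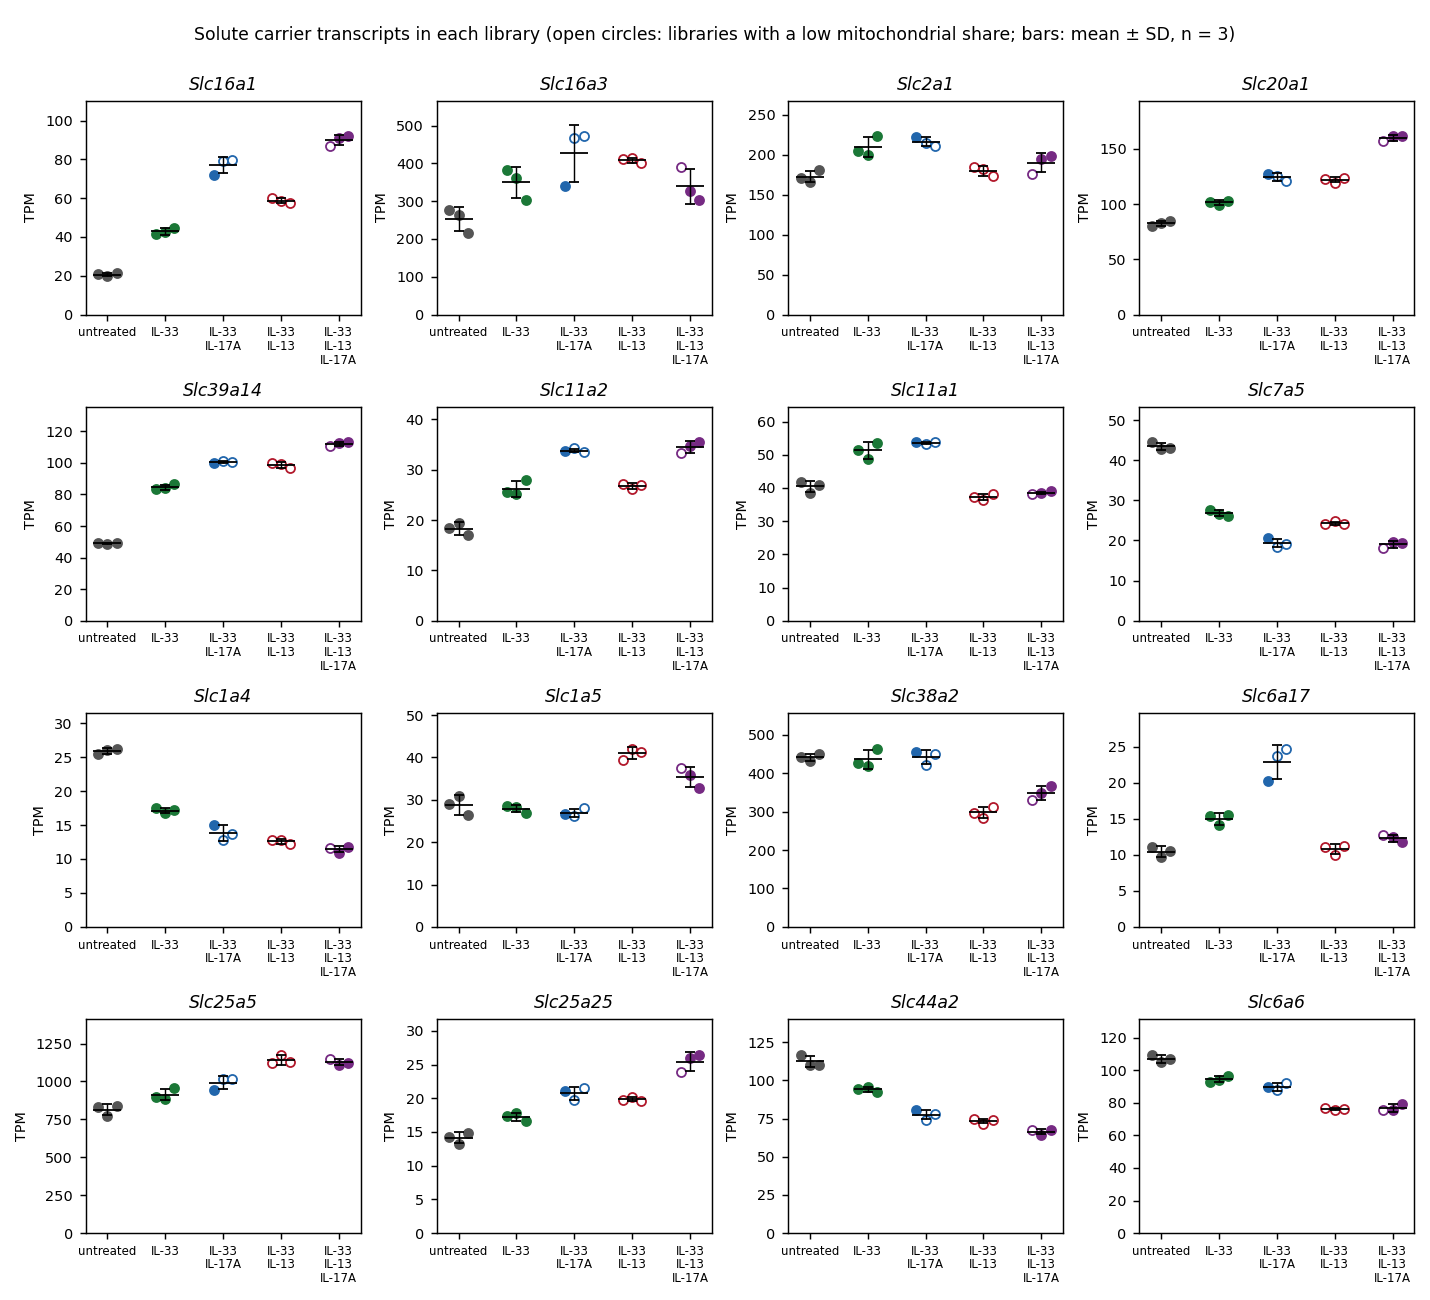
TPM of 16 members in each library (points) with the mean and SD of the 3 libraries of a group (bars); the y axes start at 0 and open circles mark the 6 libraries with 3.50 to 3.87% mitochondrial TPM. Slc16a1, Slc20a1 and Slc39a14 separate most groups without overlap, Slc1a5 is high and Slc38a2 low in the groups with IL-13, and Slc6a17 is highest with IL-33 plus IL-17A.

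Phosphate enters cells through the sodium-linked carriers of family 20. Slc20a1, known as PiT-1 and located at chr2:129198764-129211616 on the plus strand, stood at 80.3, 82.5 and 84.7 TPM untreated and at 102, 98.9 and 103 with IL-33. Its levels were 127, 125 and 121 TPM with IL-33 plus IL-17A, 123, 119 and 123 with IL-33 plus IL-13, and 157, 161 and 161 in the triple combination. The groups with a single added cytokine overlap each other and lie above IL-33 alone, and the triple combination lies above them. IL-33 raised Slc20a1 by 0.29 (SE 0.033, adjusted p = 4.7e-05), and the 4 later comparisons gave rises of 0.26 to 0.39. The other member, Slc20a2, was between 12.9 and 14.8 TPM in group means and was not called.

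The third carrier that rose in each comparison was Slc25a25 at chr2:32414487-32451445 on the minus strand, a calcium-regulated carrier that loads the mitochondrial matrix with ATP-magnesium in exchange for phosphate. Its levels were 14.3, 13.3 and 14.9 TPM untreated, 17.4, 17.8 and 16.6 with IL-33, 21.0, 19.7 and 21.5 with IL-33 plus IL-17A, 19.7, 20.2 and 19.6 with IL-33 plus IL-13, and 23.9, 26.0 and 26.5 in the triple combination. Untreated libraries lie below all others and the triple combination above all others. The rises ran from 0.19 for IL-13 on IL-33 (adjusted p = 0.017) to 0.34 for IL-17A on IL-33 and IL-13 (adjusted p = 0.002).

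The 250 bases before the RefSeq start of each gene (build GRCm38.p6) were searched on both strands for 3 motifs. The antioxidant response element TGACNNNGC was in 10.2% of all 32851 promoters, or 11.5% of the 27025 genes in the table, and in those of 20 of the 95 members that had an entry. The STAT6-type palindrome was in 5.85% of promoters, or 6.76% of genes, and in those of 6 members. The amino acid response element TGATGNAA was in 3.45% of promoters, or 3.91% of genes, and in that of 1 member. Slc16a1, Slc20a1 and Slc25a25 hold TGACNNNGC, and the windows are shown because these genes rose in each comparison. Slc39a14 was not searched. The windows are chr3:104638414-104638663 on the plus strand, chr2:129206846-129207095 on the plus strand and chr2:32451471-32451720 on the minus strand, with matches to the motif or its reverse complement in capitals. The Slc20a1 window precedes an alternative start inside the gene, in an intron of the full-length transcript, and the window before its first start has no match. The windows before 2 other starts of Slc25a25 have none either. A match describes letters only and shows neither binding nor use of the site.
Slc16a1: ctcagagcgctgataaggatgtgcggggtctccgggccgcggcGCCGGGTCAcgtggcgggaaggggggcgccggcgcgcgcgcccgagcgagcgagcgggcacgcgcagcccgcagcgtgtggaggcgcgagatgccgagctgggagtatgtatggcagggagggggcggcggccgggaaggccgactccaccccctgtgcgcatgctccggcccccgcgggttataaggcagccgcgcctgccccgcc
Slc20a1: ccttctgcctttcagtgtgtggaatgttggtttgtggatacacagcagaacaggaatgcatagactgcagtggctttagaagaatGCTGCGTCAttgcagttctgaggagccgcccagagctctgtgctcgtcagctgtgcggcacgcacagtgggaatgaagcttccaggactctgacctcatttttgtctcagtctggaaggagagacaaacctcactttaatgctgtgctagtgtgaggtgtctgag
Slc25a25: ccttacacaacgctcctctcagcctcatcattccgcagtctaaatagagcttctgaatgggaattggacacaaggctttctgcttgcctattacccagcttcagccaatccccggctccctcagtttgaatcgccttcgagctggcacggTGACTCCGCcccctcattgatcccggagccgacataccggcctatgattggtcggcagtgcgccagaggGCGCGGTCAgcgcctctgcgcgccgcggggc

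A list of 8 genes that respond to NRF2, the factor that acts through that element, is given beside these matches. IL-33 raised 2 of them and lowered none, and IL-17A raised 2 on IL-33 and 1 on IL-33 and IL-13. IL-13 raised 2 and lowered 2 on IL-33, but 0 and 1 with the set term, and raised 1 and lowered 1 on IL-33 and IL-17A. In these 5 comparisons, in the order given, 14.2%, 9.76%, 7.45%, 32.4% and 15.8% of all tested genes were called. Nqo1, a quinone reductase, rose in all 5 comparisons, from 11.2 TPM untreated to 22.8 in the triple combination, although its rise with IL-13 on IL-33 was lost with the set term (adjusted p = 0.21). Hmox1, the heme oxygenase, rose by 0.29 with IL-33 and fell by 0.18 when IL-13 was added to IL-33 and IL-17A.

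Of the 20 metal carriers, IL-33 raised 5 and lowered none, 3 rose with IL-17A on IL-33 and 5 rose with IL-17A on IL-33 and IL-13. With IL-13 on IL-33, 4 rose and 7 fell, and with IL-13 on IL-33 and IL-17A, 2 rose and 3 fell. Slc39a10 in both of these and Slc41a2 in the IL-17A count on IL-33 and IL-13 are members at the threshold in some groups only. With the set term 5 rose and 2 fell with IL-33, 2 rose and 2 fell with IL-13 on IL-33, and 2 rose and 1 fell with IL-17A on IL-33 and IL-13. Without it, 14.2% of all tested genes were called with IL-33, 9.76% with IL-17A on IL-33 and 7.45% with IL-17A on IL-33 and IL-13. For IL-13 the shares were 32.4% on IL-33 and 15.8% on IL-33 and IL-17A. Slc39a14, or ZIP14, takes up zinc, manganese and iron not bound to transferrin, and lies at chr14:70303469-70351425 on the minus strand. Slc39a14 levels were 49.2, 48.6 and 49.2 TPM untreated, 83.4, 83.9 and 86.5 with IL-33, 100.03, 101 and 101 with IL-33 plus IL-17A, 99.7, 99.5 and 96.8 with IL-33 plus IL-13, and 110.5, 112 and 113 in the triple combination. The untreated, IL-33 and triple groups stand clear of all others, and the 2 groups with a single added cytokine lie side by side without overlap. IL-33 raised Slc39a14 1.73-fold (log2 change 0.78, SE 0.026, adjusted p = 6.8e-10). The later rises were small but exceeded the spread, from 0.25 for IL-17A on IL-33 (adjusted p = 7.3e-05) to 0.15 for IL-13 on IL-33 and IL-17A (adjusted p = 0.0018).

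Slc11a2, or DMT1, moves ferrous iron with protons into the cytosol. It stood at 18.5, 19.5 and 17.0 TPM untreated, 25.5, 25.1 and 28.0 with IL-33, 33.6, 34.3 and 33.6 with IL-33 plus IL-17A, 27.3, 26.1 and 27.0 with IL-33 plus IL-13, and 33.2, 34.8 and 35.5 in the triple combination. The groups with IL-17A lie above all others, and the groups with IL-13 overlap their counterparts without it. Slc11a2 rose by 0.50 with IL-33 (adjusted p = 3.5e-05), by 0.36 with IL-17A on IL-33 (adjusted p = 0.00093) and by 0.35 with IL-17A on IL-33 and IL-13 (adjusted p = 0.0015). For IL-13 the differences were 0.03 in both comparisons and were not called (SE 0.053).

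Slc11a1, or NRAMP1, exports metal from the phagosome and is known from macrophages. Its levels were 41.8, 38.6 and 41.0 TPM untreated, 51.6, 48.7 and 53.6 with IL-33, 53.7, 53.2 and 53.7 with IL-33 plus IL-17A, 37.4, 36.5 and 38.1 with IL-33 plus IL-13, and 38.3, 38.5 and 38.9 in the triple combination. The groups with IL-13 lie below both IL-33 groups without it. Slc11a1 rose by 0.33 with IL-33 (adjusted p = 9.2e-05), fell by 0.45 when IL-13 was added to IL-33 (adjusted p = 8.0e-06) and fell by 0.46 when IL-13 was added to IL-33 and IL-17A (adjusted p = 8.8e-06). Of the 14 macrophage markers, 3 rose and 7 fell with IL-13 on IL-33, and none is at 0 in all libraries. With the set term 2 of them rose and 3 fell. Of all tested genes, 32.4% were called in that comparison, 10% higher and 22.4% lower, or 10.2% with the set term. The summed level of the macrophage markers was 17878 to 18138 TPM with IL-33 and 16962 to 17190 TPM with IL-33 plus IL-13. Within that list Mrc1 rose by 0.84 and Fcgr1 fell by 0.68 in the same comparison. The part of the macrophage RNA in the change of Slc11a1 was not tested.

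Slc39a10, a zinc importer, was below the threshold in the IL-33 and IL-17A group and is given without a test. Its mean was 11.4 TPM untreated, 10.4 with IL-33, 9.52 with IL-33 plus IL-17A, 14.8 with IL-33 plus IL-13 and 14.6 in the triple combination. Slc39a13, a zinc carrier of intracellular vesicles, fell by 0.23 and 0.28 in the comparisons that add IL-13, and both calls held with the set term. Slc39a7, the most abundant of the class on the deposited scale, rose by 0.16 with IL-17A on IL-33 and by 0.13 with IL-13 on IL-33. Both calls of Slc39a7 were lost with the set term, with adjusted p = 0.24 and 0.81, while its fall by 0.14 with IL-13 on IL-33 and IL-17A held. Slc48a1, which brings heme from lysosomes to the cytosol, rose by 0.11 with IL-33. Slc30a1, the zinc exporter of the plasma membrane, lay between 78.4 and 83.9 TPM in group means and was called in no comparison.

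Genes of the list of transport partners that handle the same metals moved unevenly. The metal-binding gene Mt2 rose by 1.05 with IL-33, by 0.32 with IL-17A on IL-33 and by 0.44 with IL-17A on IL-33 and IL-13. Mt1 rose by 0.67 with IL-33. The ferritin genes Fth1 and Ftl1 changed by 0.11 and 0.08 with IL-33 and were not called, and Fth1 fell by 0.16 with IL-13 on IL-33. Steap3, an endosomal ferrireductase, fell by 0.18 with IL-17A on IL-33 and by 0.17 with IL-13 on IL-33. Steap4, a metalloreductase, had 0.707 TPM untreated and 13.7 with IL-33, a rise of 3.11 on the log2(TPM + 1) scale, and reached 32.4 TPM in the triple combination. Tfrc, the transferrin receptor, changed by -0.12 with IL-33 and was not called, but rose by 0.60 with IL-13 on IL-33 and by 0.68 with IL-13 on IL-33 and IL-17A.

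The 15 amino acid carriers split by comparison and by member. IL-33 raised 4 and lowered 4, and IL-17A on IL-33 raised 2 and lowered 3. Over the 13 at the threshold in every group, without Slc7a1 and Slc7a4, IL-33 raised 4 and lowered 2, and IL-17A on IL-33 raised 2 and lowered 2. The 4 that rose with IL-33 were Slc6a17, Slc7a8, Slc36a1 and Slc38a7. With IL-13 on IL-33, 1 rose and 8 fell, and the median log2 change of the class was -0.21 against -0.08 over all genes. Under the set term these were 2 and 5, with a median of -0.10 against -0.02. With IL-17A on IL-33 and IL-13, 2 rose and 1 fell, and with IL-13 on IL-33 and IL-17A, 1 rose and 4 fell. For IL-17A on IL-33 and IL-13 the set term left 0 higher and 1 lower. The shares of all tested genes called, without the set term, were 14.2% with IL-33 and 9.76% with IL-17A on IL-33. They were 32.4% with IL-13 on IL-33, 7.45% with IL-17A on IL-33 and IL-13, and 15.8% with IL-13 on IL-33 and IL-17A.

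Slc7a5, the catalytic chain LAT1 that imports large neutral amino acids such as leucine, had the largest fall of any member with IL-33. It lies at chr8:121881150-121907694 on the minus strand. Its levels were 44.4, 42.9 and 43.0 TPM untreated, 27.7, 26.6 and 26.2 with IL-33, 20.5, 18.4 and 19.2 with IL-33 plus IL-17A, 24.0, 24.8 and 24.0 with IL-33 plus IL-13, and 18.1, 19.7 and 19.3 in the triple combination. Untreated libraries lie far above the others and the groups with IL-17A lie lowest. Slc7a5 fell by 0.68 with IL-33 (SE 0.046, adjusted p = 5.6e-07), by 0.45 with IL-17A on IL-33 (adjusted p = 4.9e-05) and by 0.34 with IL-17A on IL-33 and IL-13 (adjusted p = 7.6e-04). Its fall by 0.14 with IL-13 on IL-33 was lost with the set term (adjusted p = 0.81). Slc3a2, the heavy chain that anchors Slc7a5 in the membrane, was called in no comparison, with means of 140.0 TPM untreated and 121 to 133 in the treated groups.

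Slc1a4, or ASCT1, exchanges alanine, serine and cysteine. It stood at 25.4, 26.0 and 26.3 TPM untreated, 17.4, 16.7 and 17.2 with IL-33, 15.01, 12.8 and 13.8 with IL-33 plus IL-17A, 12.8, 12.8 and 12.2 with IL-33 plus IL-13, and 11.6, 10.9 and 11.8 in the triple combination. Every treated library is below every untreated one. Slc1a4 fell by 0.57 with IL-33 (adjusted p = 9.3e-06), by 0.29 with IL-17A on IL-33 (adjusted p = 0.0036), by 0.41 with IL-13 on IL-33 (adjusted p = 0.00014) and by 0.25 with IL-13 on IL-33 and IL-17A (adjusted p = 0.0061). The difference of -0.13 for IL-17A on IL-33 and IL-13 was not called. Slc7a1, which imports arginine and lysine, and Slc7a4 reached the threshold in 4 groups. Slc7a1 had means of 15.9 TPM untreated, 12.2 with IL-33 and 9.65 with IL-33 plus IL-17A, and Slc7a4 had 15.9, 12.6 and 10.4.

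The amino acid carriers include known targets of ATF4, the factor of the amino acid response, but the members were not sorted by this trait. Slc7a5 and Slc1a4 fell with IL-33, Slc3a2 was called in no comparison, and Slc1a5 and Slc38a2 with IL-33 overlapped their untreated levels. A list of 14 other genes of the ATF4 response is given beside the carriers. With IL-33, 11 of the 14 fell and none rose. Atf4, itself in the list, changed by -0.14 with IL-33 and was not called (adjusted p = 0.44). With IL-17A on IL-33 7 of the list fell, with IL-13 on IL-33 1 rose and 5 fell, with IL-17A on IL-33 and IL-13 3 fell, and with IL-13 on IL-33 and IL-17A 2 rose. Of all tested genes, 14.2% were called with IL-33, and 9.76%, 32.4%, 7.45% and 15.8% in the later comparisons in this order. The group means of Trib3, a pseudokinase, were 50.04 TPM untreated and 27.6 with IL-33 (log2 change -0.83), those of Chac1, which degrades glutathione, 80.1 and 42.4 (-0.90), and those of Asns, asparagine synthetase, 77.4 and 59.2 (-0.38). Psat1, of serine synthesis, fell by 0.33 with IL-33 and rose by 0.39 with IL-13 on IL-33. With the set term 12 of the list fell with IL-33, and with IL-13 on IL-33 1 rose and 1 fell. Whether these changes and those of the carriers depend on each other was not tested.

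Slc1a5 and Slc38a2, both carriers of glutamine, moved in opposite directions with IL-13. Slc1a5, or ASCT2, had 28.9, 30.9 and 26.4 TPM untreated, 28.5, 28.2 and 27.0 with IL-33, 26.7, 26.1 and 27.9 with IL-33 plus IL-17A, 39.4, 42.1 and 41.4 with IL-33 plus IL-13, and 37.5, 35.8 and 32.9 in the triple combination. Each library with IL-13 lies above each library without it. The rises were 0.54 (SE 0.061, adjusted p = 5.6e-05) on IL-33 and 0.38 (adjusted p = 0.0011) on IL-33 and IL-17A. Slc38a2, or SNAT2, had 441, 432 and 451 TPM untreated, 426, 418 and 464 with IL-33, 456, 422 and 449 with IL-33 plus IL-17A, 297, 284 and 312 with IL-33 plus IL-13, and 330.5, 347 and 366 in the triple combination. Each library with IL-13 lies below each library without it. Slc38a2 fell by 0.55 with IL-13 on IL-33 (adjusted p = 1.3e-05) and by 0.35 with IL-13 on IL-33 and IL-17A (adjusted p = 7.0e-04). The rise of Slc38a2 by 0.22 with IL-17A on IL-33 and IL-13 was lost with the set term (adjusted p = 0.17).

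Slc6a17, a carrier of neutral amino acids best known from synaptic vesicles, had 11.1, 9.64 and 10.5 TPM untreated, 15.4, 14.1 and 15.5 with IL-33, 20.2, 23.6 and 24.7 with IL-33 plus IL-17A, 11.1, 10.02 and 11.2 with IL-33 plus IL-13, and 12.7, 12.4 and 11.7 in the triple combination. It is highest with IL-33 plus IL-17A, and the groups with IL-13 lie near the untreated level. Slc6a17 rose by 0.48 with IL-33 (adjusted p = 0.00082) and by 0.58 with IL-17A on IL-33 (adjusted p = 0.00038). It fell by 0.44 with IL-13 on IL-33 (adjusted p = 0.0013) and by 0.84 with IL-13 on IL-33 and IL-17A (adjusted p = 1.2e-05). Whether the IL-13 effect differs between these backgrounds was not shown, with an interaction of -0.40 and an adjusted p of 0.085.

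Slc43a2, or LAT4, fell by 0.34 and 0.46 in the 2 comparisons that add IL-13, from 60.5 ± 1.98 to 47.6 ± 0.296 TPM (SD, n = 3) and from 67.6 ± 0.543 to 49.0 ± 0.975. Slc36a1, which exports small amino acids from lysosomes, rose by 0.33 with IL-33 and fell by 0.33 with IL-13 on IL-33. Slc7a8, or LAT2, rose from 18.2 ± 0.983 to 25.0 ± 1.15 TPM with IL-33 and was not called in the other comparisons. The group means of Slc7a8 stayed between 23.7 and 26.7 TPM in the treated groups.

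**Figure D4:**
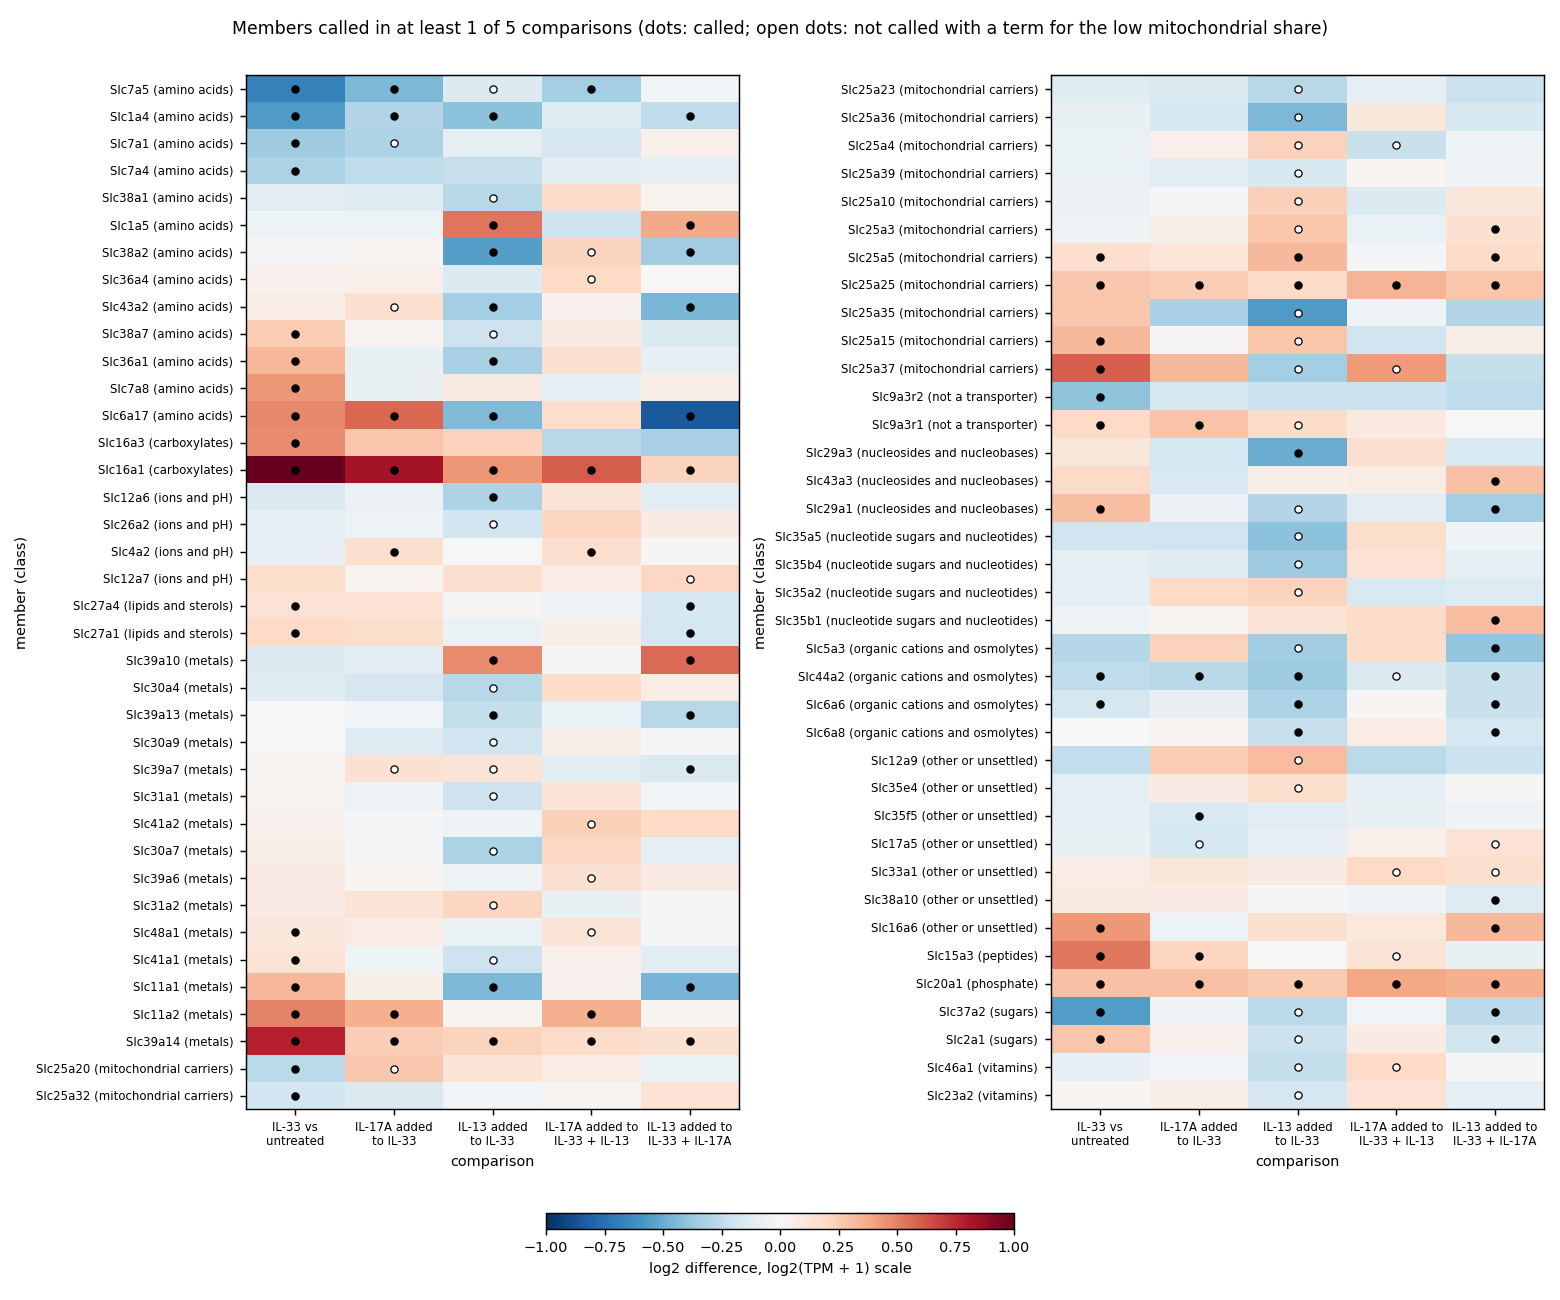
Log2 differences (color, log2(TPM + 1) scale) in the 5 comparisons (columns) of the members called in at least 1 of them (lines, with their class in brackets). Filled dots mark calls that held with the term for the low mitochondrial share and open dots calls that were lost with it. Most open dots are in the column of IL-13 added to IL-33, where 51 members were called without the term and 26 with it. The 26 are not all among the 51, and a member called only with the term has no dot there.

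Of the 26 mitochondrial carriers, IL-33 raised 4 and lowered 2, and IL-13 on IL-33 raised 6 and lowered 5, but 2 and 0 with the set term. Of all tested genes, 14.2% were called with IL-33 and 32.4% with IL-13 on IL-33, or 10.2% there with the set term. Of genes with a mean of 10 TPM or more, 17.1% and 39.2% were called in these 2 comparisons. Over the 23 at the threshold in every group, IL-33 raised 2 and lowered 2 and IL-13 on IL-33 raised 5 and lowered 3. The other comparisons had 2 rises with IL-17A on IL-33, 2 rises and 1 fall with IL-17A on IL-33 and IL-13, and 3 rises with IL-13 on IL-33 and IL-17A. Over the 23 the middle one had 1 rise and 1 fall, and the other counts were the same. In these comparisons 9.76%, 7.45% and 15.8% of all tested genes were called. Slc25a5, or ANT2, had 829, 774 and 838 TPM untreated, 897, 885 and 955 with IL-33, 946, 1014 and 1018 with IL-33 plus IL-17A, 1119, 1177 and 1130.3 with IL-33 plus IL-13, and 1147, 1111 and 1122 in the triple combination. All 6 libraries with IL-13 lie above the 9 without it. Slc25a5 rose by 0.32 with IL-13 on IL-33 (SE 0.042, adjusted p = 0.00017), by 0.18 with IL-13 on IL-33 and IL-17A (adjusted p = 0.011) and by 0.16 with IL-33 (adjusted p = 0.020).

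Slc25a3, the phosphate carrier that feeds ATP synthase, rose by 0.28 with IL-13 on IL-33 and by 0.15 with IL-13 on IL-33 and IL-17A, and the former call was lost with the set term (adjusted p = 0.067). Slc25a4, or ANT1, rose by 0.23 with IL-13 on IL-33 and fell by 0.23 with IL-17A on IL-33 and IL-13. Neither call of Slc25a4 held with the set term (adjusted p = 0.67 and 0.34), and the 3 values with IL-33 plus IL-17A, 649.8, 759 and 792 TPM, split in the same way as the set. The fall of Slc25a36, a pyrimidine nucleotide carrier, by 0.45 with IL-13 on IL-33 was lost with the set term (adjusted p = 0.088).

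All 4 carriers of organic cations and osmolytes fell when IL-13 was added, in both comparisons, where 22.4% and 9.14% of all genes were called lower. With the set term 3 fell on IL-33 and 4 on IL-33 and IL-17A. Slc44a2, a choline carrier, had 117, 110.2 and 110.3 TPM untreated, 94.2, 95.8 and 92.2 with IL-33, 80.4, 74.3 and 78.2 with IL-33 plus IL-17A, 74.4, 71.7 and 74.0 with IL-33 plus IL-13, and 67.7, 64.4 and 67.2 in the triple combination. The untreated, IL-33 and triple groups overlap with no other group. Slc44a2 fell by 0.25 with IL-33 (adjusted p = 0.00057), by 0.27 with IL-17A on IL-33 (adjusted p = 0.00055), by 0.35 with IL-13 on IL-33 (adjusted p = 3.8e-05) and by 0.22 with IL-13 on IL-33 and IL-17A (adjusted p = 0.0018). Its fall by 0.14 with IL-17A on IL-33 and IL-13 (adjusted p = 0.044) was lost with the set term (adjusted p = 0.10).

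Slc6a6, the taurine carrier, had 109.7, 105 and 107 TPM untreated, 93.2, 93.8 and 96.8 with IL-33, 89.7, 87.7 and 92.5 with IL-33 plus IL-17A, 77.1, 75.9 and 76.1 with IL-33 plus IL-13, and 75.4, 75.9 and 79.5 in the triple combination. The 6 libraries with IL-13 lie below all others. Slc6a6 fell by 0.18 with IL-33 (adjusted p = 0.0025), by 0.31 with IL-13 on IL-33 (adjusted p = 3.7e-05) and by 0.22 with IL-13 on IL-33 and IL-17A (adjusted p = 0.00058). Slc6a8, the creatine carrier, fell by 0.23 and 0.18 in the comparisons with IL-13, and Slc5a3, the myo-inositol carrier, by 0.35 and 0.39. The first of the Slc5a3 calls was lost with the set term (adjusted p = 0.59).

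Slc15a3, which moves peptides and histidine out of lysosomes in immune cells, had 57.5, 58.1 and 55.5 TPM untreated, 83.5, 80.2 and 84.3 with IL-33, 97.2, 96.7 and 94.9 with IL-33 plus IL-17A, 82.9, 83.7 and 82.7 with IL-33 plus IL-13, and 90.0, 91.0 and 93.2 in the triple combination. The groups with IL-17A stand above the other treated groups. Slc15a3 rose by 0.53 with IL-33 (adjusted p = 1.1e-07) and by 0.22 with IL-17A on IL-33 (adjusted p = 0.00055). The rise by 0.14 with IL-17A on IL-33 and IL-13 was lost with the set term (adjusted p = 0.085). IL-33 raised 4 and lowered 2 of the macrophage markers, or 4 and 3 with the set term. Of all tested genes, 14.2% were called with IL-33, or 19.3% with the set term. The part of the macrophage RNA in the change of Slc15a3 was not tested.

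Among the nucleoside carriers, Slc29a1, of the plasma membrane, rose by 0.30 with IL-33, from 28.1 ± 1.12 to 34.8 ± 1.19 TPM (SD, n = 3), and fell by 0.34 with IL-13 on IL-33 and IL-17A. Its fall by 0.29 with IL-13 on IL-33 was lost with the set term (adjusted p = 0.059). Slc29a3, of lysosomes, fell from 23.0 ± 0.72 to 15.96 ± 0.77 TPM with IL-13 on IL-33, by 0.50 on the log2 scale, and its difference of -0.15 with IL-13 on IL-33 and IL-17A was not called. The fatty acid carriers Slc27a1 and Slc27a4 rose by 0.20 and 0.14 with IL-33 and fell by 0.18 and 0.16 with IL-13 on IL-33 and IL-17A.

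Among the 8 carriers of nucleotide sugars and nucleotides, Slc35b1, which exchanges ATP and ADP at the endoplasmic reticulum, rose by 0.31 with IL-13 on IL-33 and IL-17A, from 127 ± 7.96 to 157 ± 3.58 TPM (SD, n = 3). Slc35b2, which brings the sulfate donor into the Golgi and is the most abundant of that class on the deposited scale, was called in no comparison. Slc4a2, a chloride and bicarbonate exchanger and one of 9 carriers of ions and protons, rose by 0.16 and 0.17 in the 2 comparisons that add IL-17A. Slc46a1, a folate carrier, fell by 0.24 with IL-13 on IL-33 and rose by 0.20 with IL-17A on IL-33 and IL-13, and both calls were lost with the set term (adjusted p = 0.069 and 0.10). Slc16a6, of the monocarboxylate family, rose by 0.44 with IL-33 and by 0.32 with IL-13 on IL-33 and IL-17A. Slc9a3r1 carries an Slc symbol but encodes a scaffold protein, and rose by 0.20 with IL-33 and 0.29 with IL-17A on IL-33.

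The smaller calls by the naming rule were those of Slc25a20, the acylcarnitine carrier, which fell by 0.27 with IL-33 and rose by 0.27 with IL-17A on IL-33, of Slc17a5, the lysosomal sialic acid carrier, which fell by 0.17 with IL-17A on IL-33, and of Slc35f5, which fell by 0.16 there. Slc12a9 rose by 0.31 with IL-13 on IL-33, and Slc43a3, a purine nucleobase carrier, rose by 0.29 with IL-13 on IL-33 and IL-17A. Slc52a2, a riboflavin carrier and the most abundant of the 4 vitamin carriers, and Slc35a4, the most abundant of the members with no settled substrate, had means of 39.8 and 252 TPM over the 15 libraries. The IL-17A call of Slc25a20, the call of Slc17a5 and that of Slc12a9 were lost with the set term (adjusted p = 0.23, 0.12 and 0.36).

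Among the 13 members at the threshold in some groups only, Slc25a37, the mitochondrial iron importer mitoferrin 1, had means of 8.28 TPM untreated, 13.0 with IL-33, 16.5 with IL-33 plus IL-17A, 10.03 with IL-33 plus IL-13 and 13.8 in the triple combination. Slc25a35 had 12.1 TPM with IL-33 and 7.52 to 9.74 in the other groups. Slc41a2, a magnesium carrier, had 10.48 TPM in the triple combination and 8.74 to 9.06 elsewhere. Slc9a3r2, a scaffold protein, had 13.1 TPM untreated and 6.88 to 9.63 with cytokines. Slc16a11 reached 10.4 TPM with IL-33 plus IL-13 and had 5.997 to 7.37 elsewhere, and Slc26a11 had 10.05 TPM untreated and 8.54 to 9.35 with cytokines. Others were Slc27a3, with 7.94 to 11.1 TPM, Slc25a15, with 8.46 to 13.4, and Slc4a1ap, with 9.90 to 11.3, beside Slc7a1, Slc7a4 and Slc39a10 above.

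No member was called for the IL-13 by IL-17A interaction, which compares the IL-17A effect with and without IL-13. By limma 47 of 13887 genes were called, which is 0.338% (0.158% higher and 0.18% lower), and the smallest adjusted p of a member was 0.064. At an unadjusted p under 0.05 there were 36 of the 128 members and 3750 of all genes, and limma-voom on the estimated reads called 17 members, where it called 10.1% of all genes. The count was 31 when the first IL-33 plus IL-17A library was left out, with 21.9% of all genes called, and 21 when the first triple library was left out, with 16.4%. It was 0 with the set term, where 0.0144% of all genes were called, 0.0072% higher and 0.0072% lower, and 0 under the remaining alternatives run. These 2 libraries are the ones that differ from their group in mitochondrial share.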

How the data were processed

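Total RNA of 15 libraries was sequenced, and the submitters' processing notes name HISAT2 and mm10. The authors deposited TPM per Ensembl gene, and how these were counted is not given in the sources used here. Low values fall on whole reads over gene span, introns included, for 90.5 to 91.9% of low values per library (tolerance 0.03), which gave the depth estimates. The levels over exon length use GENCODE vM21. Groups follow the labels, and the 13887 genes that reached 1 TPM in 3 or more libraries entered a single fit with limma 3.58.1 (R 4.3.3; trend and robust options) on log2(TPM + 1), with Benjamini-Hochberg adjustment. Python 3.11.15 was used for the joins.

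The members, classes, gene lists and the set of 6 libraries were chosen with earlier results of these data known. Named are the 6 largest called rises and falls per comparison, the most abundant member of each class and a fixed list of carriers. Classes follow family membership and general knowledge. Slc7a6os was moved to the genes that are no transporters, and a class was renamed, after values were seen. Slc7a8, Slc27a1, Slc36a1, Slc38a7, Slc39a13, Slc46a1 and Slc48a1 were named after their values were seen. The alternatives were another pseudocount, no filter, median-ratio scaling, a set term, libraries outside or inside the set, the compared groups alone, each library left out, and voom on estimated reads. The voom and inside-the-set alternatives were added after seeing the data. The tests were checked on simulated data. Values of some single Slc genes are not reported here.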

Additional observations from a re-analysis of the deposited data

How the results depend on the processing

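With IL-33 against untreated, 24 to 39 members were called under every alternative run, against 33. IL-17A on IL-33 gave 18, but 30 with voom on estimated reads, 9 in a fit of the compared groups alone and 4 with libraries outside the set of low mitochondrial share. Leaving out single libraries gave 13 to 38, the highest without replicate 1 of IL-33 and IL-17A. IL-13 on IL-33 gave 51, but 26 with the set term, and 31 to 46 without single libraries, the lowest without replicate 2 of IL-33 and IL-13. Its split of 17 higher and 34 lower became 28 and 25 with median-ratio scaling and 32 and 24 with voom. IL-17A on IL-33 and IL-13 gave 18, but 10 with the set term, 10 with the compared groups alone, 3 with libraries inside the set and 23 with voom (16 higher, 7 lower). Without single libraries it gave 7 to 25: 9, 8 and 9 without replicates 1, 2 and 3 of IL-33 and IL-13, and 7 and 8 without replicates 2 and 3 of the triple combination. IL-13 on IL-33 and IL-17A gave 31, but 12 with the compared groups alone, 12 outside the set, 8 inside it, and 19 to 37 without single libraries, with 20 without replicate 3 of IL-33 and IL-17A and 19 without replicate 2 of the triple combination. The interaction gave 0, but 17 with voom and 0 to 31 without single libraries. The cause of these shifts was not tested. Of the 57 calls named by rule, none changed direction under any alternative, and 11 were lost with the set term, 3 with scaling, 3 with voom, 13 with the compared groups alone, 14 of 36 outside the set and 12 of 21 inside it. The 57 include calls of Slc7a1, Slc7a4, Slc9a3r2, Slc25a35, Slc25a37, Slc39a10 and Slc41a2, which are at the threshold in some groups only. Their own levels decide their membership, so these calls are no separate support. Leaving out 1 library lost 1 to 7 of the 57 at a time, and 43 of the 57 were kept in every such fit. Lost in 5 of 6 such fits were Slc7a4 with IL-33, Slc35f5 with IL-17A on IL-33, Slc25a4 and Slc44a2 with IL-17A on IL-33 and IL-13, and Slc5a3 with IL-13 on IL-33 and IL-17A. No paired analysis was possible because the labels give no replicate numbers, and those used here only name libraries in accession order. TPM hold no total RNA per cell.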

Other observations

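Carriers whose symbols do not begin with Slc followed by a digit were outside the rule, and 24 of them were tested. With IL-33 2 rose and 2 fell, with IL-17A on IL-33 2 rose and 2 fell, with IL-13 on IL-33 2 rose and 7 fell, with IL-17A on IL-33 and IL-13 2 rose, and with IL-13 on IL-33 and IL-17A 1 rose and 2 fell. With the set term these became 0 and 1 for IL-13 on IL-33, and 1 and 1 for each addition of IL-17A. Among all tested genes, the called shares were 14.2% with IL-33, 9.76% with IL-17A on IL-33 and 32.4% with IL-13 on IL-33. They were 7.45% with IL-17A on IL-33 and IL-13, and 15.8% with IL-13 on IL-33 and IL-17A. The set term gave shares of 10.2% for IL-13 on IL-33 and 6.01% for IL-17A on IL-33. For IL-17A on IL-33 and IL-13 its share was 4.08%. Slco3a1, an organic anion transporter, had means of 2.24 TPM untreated, 3.24 with IL-33, 6.32 with IL-33 plus IL-17A, 4.18 with IL-33 plus IL-13 and 7.27 in the triple combination. It rose by 0.79 with IL-17A on IL-33 and by 0.68 with IL-17A on IL-33 and IL-13. Slco4a1, which carries thyroid hormone and other anions, rose from 49.5 to 62.3 TPM with IL-33 (log2 change 0.32) and to 84.7 with IL-17A added (0.44). The call of Slco4a1 with IL-17A was lost with the set term (adjusted p = 0.070).

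Several well-known carriers lay below the 10 TPM threshold on the deposited scale. Slc7a11, the cystine importer, spans 551 kb and had a mean of 0.195 TPM, or 2.57 TPM over exon length. Slc39a8, the zinc carrier ZIP8, had 6.56 TPM and 18.0 TPM over exon length, and Slc40a1, the iron exporter ferroportin, 4.10 TPM and 2.79 TPM over exon length. Slc44a1, a choline carrier with a span of 182 kb, had 4.83 TPM and 41.9 TPM over exon length.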
